A study of Mus musculus with 32 samples.

Results

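Type I interferon effector genes were described across 4 mouse embryonic fibroblast lines that had been given aphidicolin (APH), a drug that stalls replication by inhibiting the replicative DNA polymerases. The 42 genes are a list of symbols of proteins that carry out the antiviral and regulatory work of the interferon response. The list was chosen with earlier results of these data known, and its genes were looked up by symbol in the authors' gene tables. Of these, 41 were found among the 39017 genes of the count table, and all 41 passed the filter on low counts that left 18484 genes to test. Epsti1, which the same tables do not name, was matched only through the GENCODE annotation, had 18 reads in all 32 libraries and was not tested. Mean levels of the 41 genes ran from 0.266 CPM (Oas1g) to 96.7 CPM (Ifitm3), where CPM are counts per 1e6 reads after scaling of the libraries, and 34 of the 41 were at 1 CPM or more.

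Of the fibroblast lines, wtATM and wtATMIN were wild type, and each was the control of a line with ATM or ATMIN knocked out. The ATM kinase signals DNA breaks, and ATMIN is one of the proteins that bind and activate it. Each line was grown in serum-containing medium with 1 µM APH or with DMSO, the solvent, for 4 h or 24 h, and every one of the 16 groups held 2 RNA samples. The labels give neither the allele of either deletion nor the age or strain of the embryos. Each genotype was 1 line, and an effect of the deletion and of the line cannot be told apart. Whether the 2 samples of a group were separate cultures is not stated, so p-values measure only the spread between samples, estimated over all groups together. In bulk RNA, a change in the number of cells that express a gene and a change in RNA per cell cannot be told apart. Where 4 values follow each other below, the first is for wtATM, the next for the ATM knock-out, then come wtATMIN and the ATMIN knock-out.

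Type I interferons bind the receptor IFNAR, whose kinases JAK1 and TYK2 signal to STAT2. With IRF9 it is part of a complex that binds the interferon-stimulated response element in promoters and switches on the effector genes. Fibroblasts are a classical source of interferon beta and answer it strongly, and several effectors can also be induced without interferon through IRF3 or NF-kB. The effectors include proteins that bind foreign RNA, the ubiquitin-like modifier ISG15 with its enzymes, synthetases that activate an RNA-degrading nuclease, and membrane proteins that block virus entry or release.

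Promoters of 6 genes whose levels are described below are printed as examples. Strongly induced were Ifit1, Isg15 and Rsad2, levels of Lgals9 and Trim25 differed between lines, and Herc6 was moderately induced and without a match. These 6 do not show whether a match goes with induction. The sequences are the 140 bases before the RefSeq start on GRCm38.p6, 5′ to 3′ on the strand of the gene: Ifit1 chr19:34640749-34640888 (plus), Isg15 chr4:156200819-156200958 (minus), Rsad2 chr12:26456453-26456592 (minus), Lgals9 chr11:78984925-78985064 (minus), Herc6 chr6:57580852-57580991 (plus) and Trim25 chr11:88999263-88999402 (plus). Capitals mark matches to the core of the response element, GAAANNGAAA, on either strand, with overlapping matches counted.
Ifit1: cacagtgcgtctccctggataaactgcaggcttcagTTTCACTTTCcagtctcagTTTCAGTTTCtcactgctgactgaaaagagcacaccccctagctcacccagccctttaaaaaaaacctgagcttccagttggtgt
Isg15: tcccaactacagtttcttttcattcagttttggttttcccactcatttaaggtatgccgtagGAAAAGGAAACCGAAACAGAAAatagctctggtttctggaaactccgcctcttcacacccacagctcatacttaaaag
Rsad2: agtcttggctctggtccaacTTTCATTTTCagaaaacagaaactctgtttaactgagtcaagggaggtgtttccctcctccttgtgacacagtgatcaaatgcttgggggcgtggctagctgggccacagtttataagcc
Lgals9: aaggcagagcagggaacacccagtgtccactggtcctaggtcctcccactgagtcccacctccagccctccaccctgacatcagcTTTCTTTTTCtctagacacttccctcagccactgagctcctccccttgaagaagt
Herc6: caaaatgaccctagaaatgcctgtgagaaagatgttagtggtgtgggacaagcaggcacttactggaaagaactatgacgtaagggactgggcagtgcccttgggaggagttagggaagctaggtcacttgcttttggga
Trim25: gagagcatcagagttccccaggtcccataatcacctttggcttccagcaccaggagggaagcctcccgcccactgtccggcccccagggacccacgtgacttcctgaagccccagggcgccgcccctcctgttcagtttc
The printed stretch held 2 matches in Ifit1, 3 overlapping ones in Isg15 and 1 each in Rsad2 and Lgals9. None lay in the printed Herc6 and Trim25 stretches, which says only that these letters were not there.

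A promoter window of 300 bases, from 250 before to 50 after the start, was found in RefSeq for 31 of the 42 genes, some of which have several starts. The GAAANNGAAA core was present in a window of 13 of these 31 genes (41.9%), against 3.99% of all 27025 genes with such a window. Among genes higher after 24 h of APH in all 4 lines (below), Ifit1, Isg15, Rsad2, Eif2ak2 and Lgals9 had the core. In the same group, Oasl1, Oasl2, Dtx3l, Xaf1 and Samd9l had a window without it. The gamma-activated site TTCNNNGAA, on either strand and with overlapping matches counted, was present for 8 of the 31 (25.8%), against 9.55% of all genes. These shares describe letters in windows and not binding, and no window was found for Usp18, Oas1b, Oas2, Mx1, Mx2, Dhx58, Zbp1, Parp9, Parp14, Ifi27 or Rtp4.

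**Figure D1:**
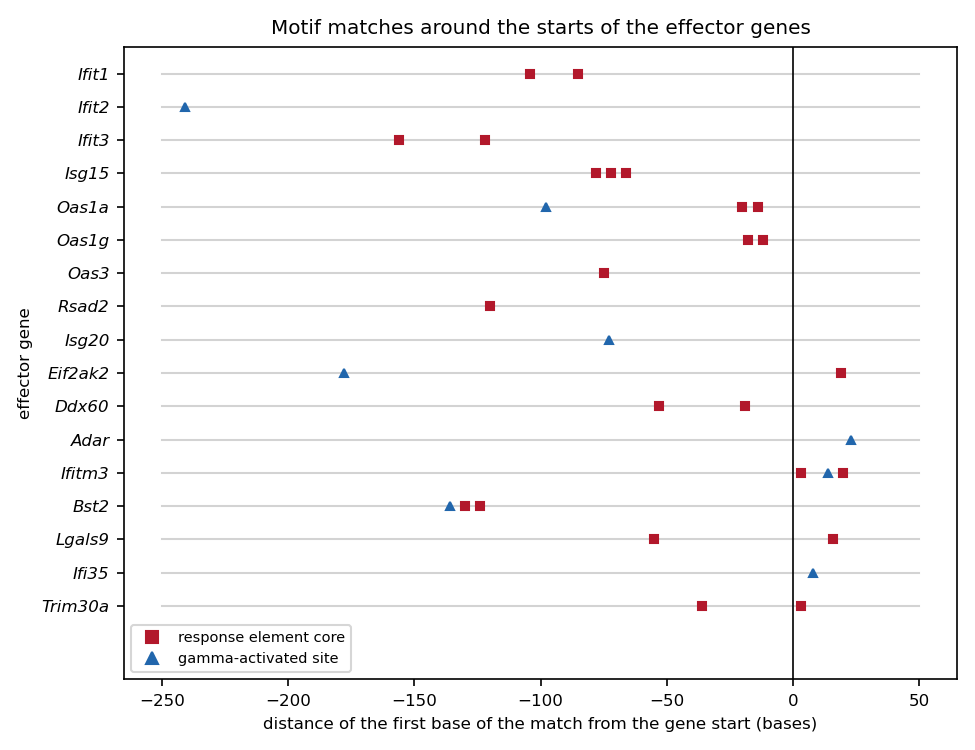
Motif matches in the promoter windows of the effector genes that hold at least 1. The x axis is the distance of the first base of a match from the RefSeq start in bases, squares are the response element core, triangles the gamma-activated site, and grey lines the window searched. The 3 Isg15 squares lie within 80 bases before the start.

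The depth of the 32 libraries ran from 9321329 to 21020662 reads in genes. Both ATM knock-out APH 4 h libraries stood apart: 156 and 406 olfactory and vomeronasal receptor genes had reads in them, against 17 to 95 in the other 30, and the correlation between these replicates was 0.988 against at least 0.996 in the other groups (log2 CPM). The ribosomal sequence Gm42418 took 13783 to 97900.1 CPM in the 4 h libraries and 252 to 5754 CPM in the 24 h libraries. The labels do not give the deleted part of either gene, and reads outside it do not check a deletion. Atm was at 34.3 ± 9.33 CPM (SD, n = 8) in the ATM knock-out and 54.3 ± 8.75 in wtATM. Atmin was at 5.27 ± 1.06 CPM in the ATMIN knock-out and 26.6 ± 4.54 in wtATMIN. Of 10 fibroblast markers 9 reached a mean of 1 CPM, with a summed level of 7181 to 31717 CPM. The exception over all libraries was Lum, and Thy1 was high only in the ATM knock-out line (182 to 276 CPM against at most 0.581 elsewhere). Markers of epithelial and endothelial cells summed to at most 7.94 and 2.89 CPM.

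After 24 h of APH most of the interferon effector genes were higher than in DMSO in every line. In edgeR's quasi-likelihood test, adjusted by the Benjamini-Hochberg method over all 18484 genes (adjusted p under 0.05, which is what called means throughout), 28, 27, 30 and 31 of the 41 were called higher. Log2 changes below are given ± their standard error, with p-values adjusted by the same test. Over all genes the share called higher was 14.4%, 15.7%, 13.6% and 14.3%. Called lower were 0, 0, 2 and 1 of the 41, against 14.3%, 12.2%, 15.3% and 15.8% of all genes. The same shares stand beside the 24 h counts of the small groups of effector genes by role below. Because the list was chosen with earlier results of these data known, the contrast with all genes is descriptive. The median log2 change of the 41 (a log2 change of 1 is a doubling) was 0.79, 0.95, 0.79 and 0.74, while that of all genes lay between 0.00 and 0.01. In these medians a gene with no read in 1 of the groups stands at the bound that 3 reads over that group allow, and a gene with 3 reads or fewer in both groups is left out (3 genes in the ATM knock-out). Restricted to the 34 genes at a mean of 1 CPM or more, 22, 25, 24 and 25 were higher. That mean includes the APH 24 h libraries, so genes such as Rsad2 pass the cut through them. The restricted count is therefore no separate support, and the share over all genes with the same cut was not counted.

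Each line has its own controls, so the 4 comparisons share no sample. At 24 h, 13 of the 41 genes were called higher in all 4 lines, 16 in 3, 6 in 2, 4 in 1 and 2 in none. Among all genes 2.68% were called higher in all 4, 4.24% in 3, 9.56% in 2, 15.5% in 1 and 68% in none. The 13 were Ifit1, Isg15, Oasl1, Oasl2, Mx2, Rsad2, Eif2ak2, Parp14, Dtx3l, Lgals9, Ifi27, Xaf1 and Samd9l. The 2 that were called in none were Oas3 and Sp100. With 2 samples a group, leaving out 1 library moved some calls: 16 of 28, 21 of 27, 17 of 32 and 17 of 32 were kept in every fit without 1 of the libraries, and the number called ran from 21 to 24, 23 to 26, 22 to 26 and 23 to 28.

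**Figure D2:**
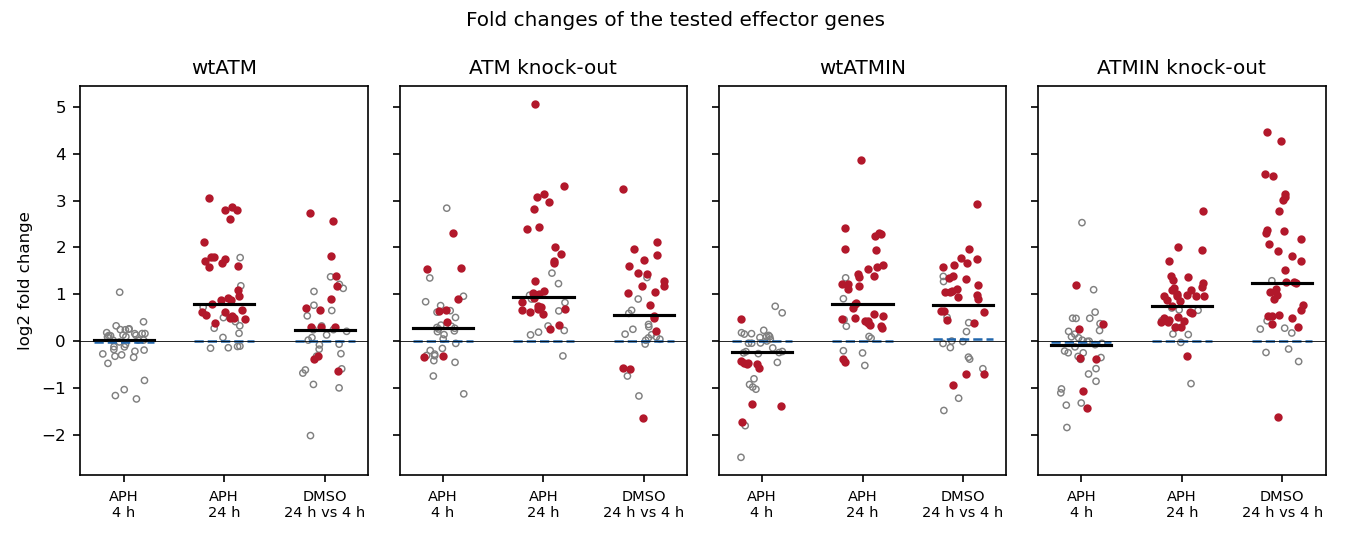
Log2 fold change of each tested effector gene, by line, for APH against DMSO at 4 h and at 24 h and for DMSO at 24 h against DMSO at 4 h (y axis). Filled red points were called, open points were not, genes without a read in 1 group stand at their bound, genes with 3 reads or fewer in both groups are left out, black bars are medians of the effector genes and dashed blue bars those of all genes. The APH 24 h medians lie at 0.79, 0.95, 0.79 and 0.74.

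Blood and immune cell markers, the one other marker list with more than a trace of RNA, summed to 20.3 to 34.6 CPM in the DMSO 24 h libraries and 25.8 to 47 CPM in the APH 24 h libraries. Nearly all of their reads came from Csf1r, Cd14, Cd68, Itgam and, in wtATM, Lyz2. The defining leukocyte gene Ptprc had 9 reads, the macrophage gene Adgre1 2 and the T cell gene Cd3e 1 in all 32 libraries together. The part of these cells in the 24 h result was not tested beyond those values.

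**Figure D3:**
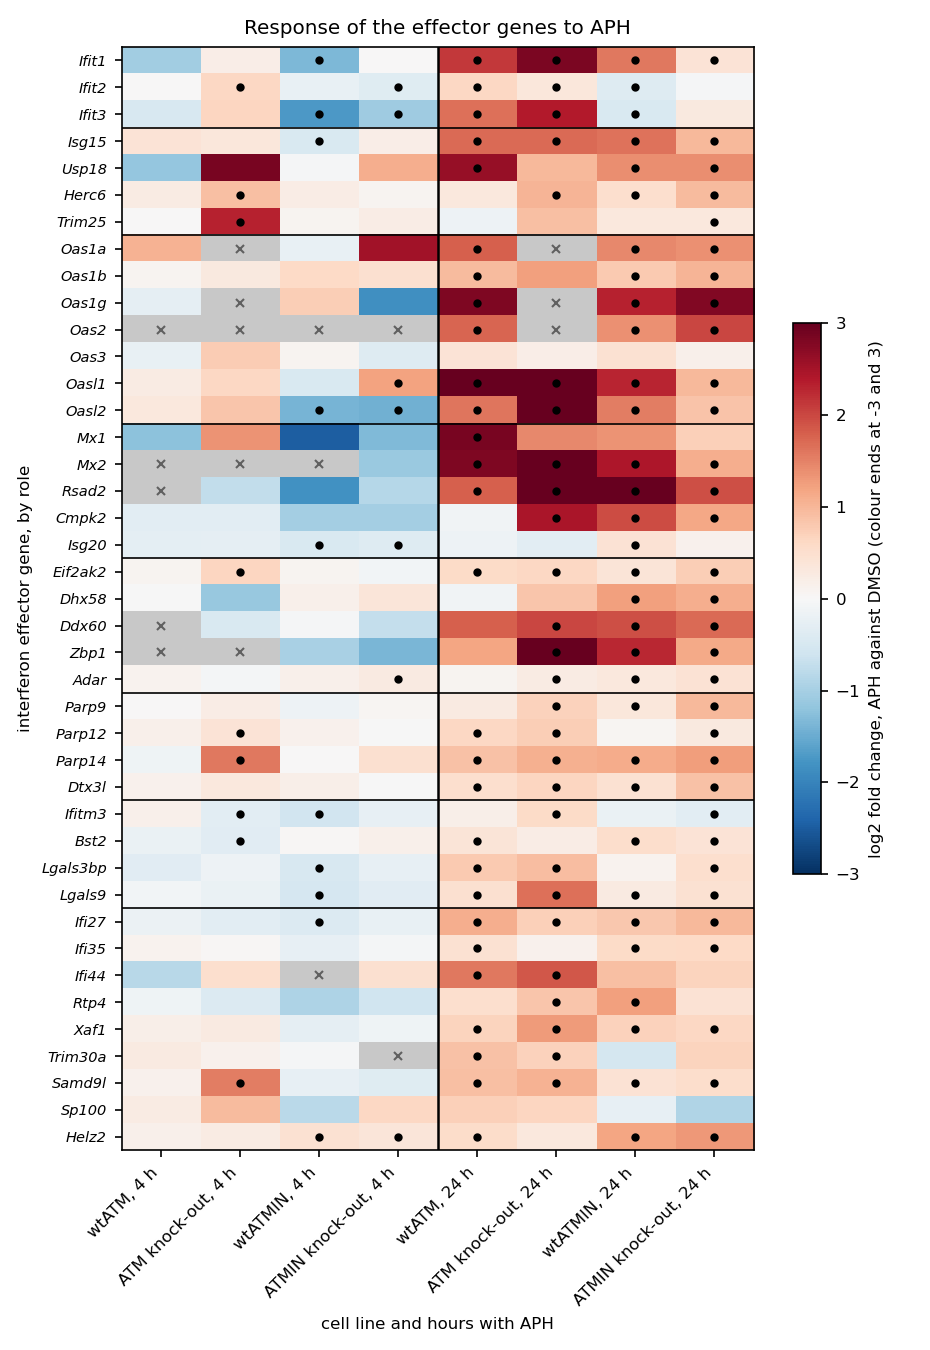
Log2 fold change of each effector gene (rows, grouped by role) between APH and DMSO in each line at 4 h and 24 h (columns), in colour from −3 to 3. Dots mark called changes and grey cells with a cross mark genes with 3 reads or fewer in both groups. Most cells of the 24 h columns are red and most dots lie there.

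The IFIT proteins, which bind foreign RNA and block its translation, are encoded by a cluster on chromosome 19 (Ifit2 chr19:34550694-34576419, Ifit3 chr19:34583531-34588731 and Ifit1 chr19:34640871-34650009 on mm10). Of the 3 genes 3, 3, 1 and 1 were called higher after 24 h of APH, and 0, 0, 2 and 0 lower. Ifit1, which recognises RNA whose cap lacks the methyl marks of the host, was at 0.88 and 0.697 CPM in DMSO and 4.21 and 2.67 CPM in APH in wtATM, at 7.08 and 5.22 against 42.7 and 44.3 in the ATM knock-out. It was at 9.31 and 9.67 against 28.4 and 28.5 in wtATMIN and at 26.7 and 28.9 against 36.9 and 36.9 in the ATMIN knock-out. The APH and DMSO libraries did not overlap in any line, and the smallest step was in the ATMIN knock-out, where DMSO alone was already high. With 2 libraries a group, lack of overlap is weak evidence by itself, here and below. Its share over all genes was not counted. Log2 changes of Ifit1 were 2.13 ± 0.28 (adjusted p = 2.87e-07), 2.82 ± 0.14 (adjusted p = 1.65e-17), 1.59 ± 0.13 (adjusted p = 1.09e-11) and 0.41 ± 0.12 (adjusted p = 0.00639). The Ifit1 call was lost for the ATMIN knock-out without DMSO replicate 1 (adjusted p = 0.0945). In the 16 libraries of 4 h the gene ranged from 0.118 to 4.02 CPM.

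Ifit2, the gene with the most reads of the 3, was at 9.9 and 9.93 CPM in DMSO and 15.6 and 14.8 CPM in APH in wtATM, at 45.1 and 50.2 against 60.1 and 61.1 in the ATM knock-out. It was at 35.9 and 40.6 against 30.7 and 27.6 in wtATMIN and at 35.4 and 36.6 against 35.6 and 35 in the ATMIN knock-out. The APH libraries were higher in the ATM knock-out and wtATM and lower in wtATMIN, and they overlapped with DMSO in the ATMIN knock-out. Log2 changes of Ifit2 were 0.62 ± 0.12 (adjusted p = 0.000206), 0.35 ± 0.09 (adjusted p = 0.00453), −0.39 ± 0.10 (adjusted p = 0.0025) and −0.03 ± 0.10 (adjusted p = 0.88). The Ifit2 call was lost for the ATM knock-out without DMSO replicate 1 (adjusted p = 0.0995) and for wtATMIN without DMSO replicate 2 (adjusted p = 0.0619) or APH replicate 2 (adjusted p = 0.0556). Ifit3 split in the same lines: its log2 changes were 1.66 ± 0.47 (adjusted p = 0.00672), 2.38 ± 0.18 (adjusted p = 1.07e-12), −0.45 ± 0.14 (adjusted p = 0.0112) and 0.29 ± 0.15 (adjusted p = 0.152). The Ifit3 call was lost for wtATM without DMSO replicate 1 (adjusted p = 0.138) or APH replicate 1 (adjusted p = 0.0855) and for wtATMIN without DMSO replicate 1 (adjusted p = 0.0788) or APH replicate 2 (adjusted p = 0.0762). Ifit3 and its near-identical neighbour Ifit3b can share reads, so its values are uncertain.

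ISG15 is a ubiquitin-like protein that is attached to other proteins and also secreted. Of its system, 2, 2, 3 and 4 of 4 genes were called higher and none lower in these lines. Isg15, the modifier itself, was at 1.76 and 1.63 CPM in DMSO and 5.17 and 5.93 CPM in APH in wtATM, at 4.92 and 5.02 against 15.3 and 17.2 in the ATM knock-out. It was at 11.4 and 11.1 against 35.6 and 33.7 in wtATMIN and at 16.2 and 15.4 against 31.8 and 30.6 in the ATMIN knock-out. Every APH library was above every DMSO library of its line. Log2 changes of Isg15 were 1.7 ± 0.18 (adjusted p = 5.29e-09), 1.71 ± 0.13 (adjusted p = 3.09e-12), 1.62 ± 0.11 (adjusted p = 7.51e-14) and 0.98 ± 0.11 (adjusted p = 6.41e-09). Usp18 encodes the protease that removes ISG15 and that also damps the interferon receptor, and its levels were low: it was at 0.165 and 0.407 CPM in DMSO and 1.82 and 1.69 CPM in APH in wtATM, at 0.60 and 0.129 against 0.761 and 0.718 in the ATM knock-out. It was at 0.835 and 1.28 against 2.83 and 2.6 in wtATMIN and at 0.776 and 1.01 against 1.99 and 2.71 in the ATMIN knock-out. APH and DMSO did not overlap in any line. Its log2 changes were 2.6 ± 0.52 (adjusted p = 0.000177), 0.98 ± 0.59 (adjusted p = 0.228), 1.39 ± 0.38 (adjusted p = 0.0051) and 1.39 ± 0.41 (adjusted p = 0.00868), so that the ATM knock-out did not pass. The Usp18 call was lost for wtATMIN without DMSO replicate 1 (adjusted p = 0.126) and for the ATMIN knock-out without DMSO replicate 1 (adjusted p = 0.101) or APH replicate 2 (adjusted p = 0.1).

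Herc6, the main ligase that attaches ISG15 in mice, was at 11.5 and 12.6 CPM in DMSO and 15.3 and 14.8 CPM in APH in wtATM, at 10.7 and 12.7 against 22.8 and 24.2 in the ATM knock-out. It was at 21.1 and 20.2 against 29.1 and 29.4 in wtATMIN and at 12.7 and 12 against 24.9 and 22.9 in the ATMIN knock-out. APH was above DMSO in every line, by the least in wtATM, where the change did not pass. Log2 changes of Herc6 were 0.33 ± 0.13 (adjusted p = 0.0641), 1.01 ± 0.13 (adjusted p = 2.14e-07), 0.50 ± 0.12 (adjusted p = 0.00116) and 0.95 ± 0.13 (adjusted p = 3.9e-07). Trim25, a ubiquitin ligase that acts on the RNA sensor RIG-I, was at 60.6 and 59.5 CPM in DMSO and 53.4 and 55.4 CPM in APH in wtATM, at 0.18 and 0.193 against 0.444 and 0.261 in the ATM knock-out. It was at 6.63 and 6.2 against 8.07 and 7.97 in wtATMIN and at 42.8 and 43.8 against 52.8 and 54.2 in the ATMIN knock-out. The lines differed more than the treatments, with almost no reads in the ATM knock-out, and APH was below DMSO in wtATM. Its log2 changes were −0.14 ± 0.09 (adjusted p = 0.248) in wtATM, 0.32 ± 0.14 (adjusted p = 0.0868) in wtATMIN and 0.31 ± 0.09 (adjusted p = 0.0099) in the ATMIN knock-out. The Trim25 call was lost for the ATMIN knock-out without DMSO replicate 1 (adjusted p = 0.0834) or APH replicate 2 (adjusted p = 0.0755).

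**Figure D4:**
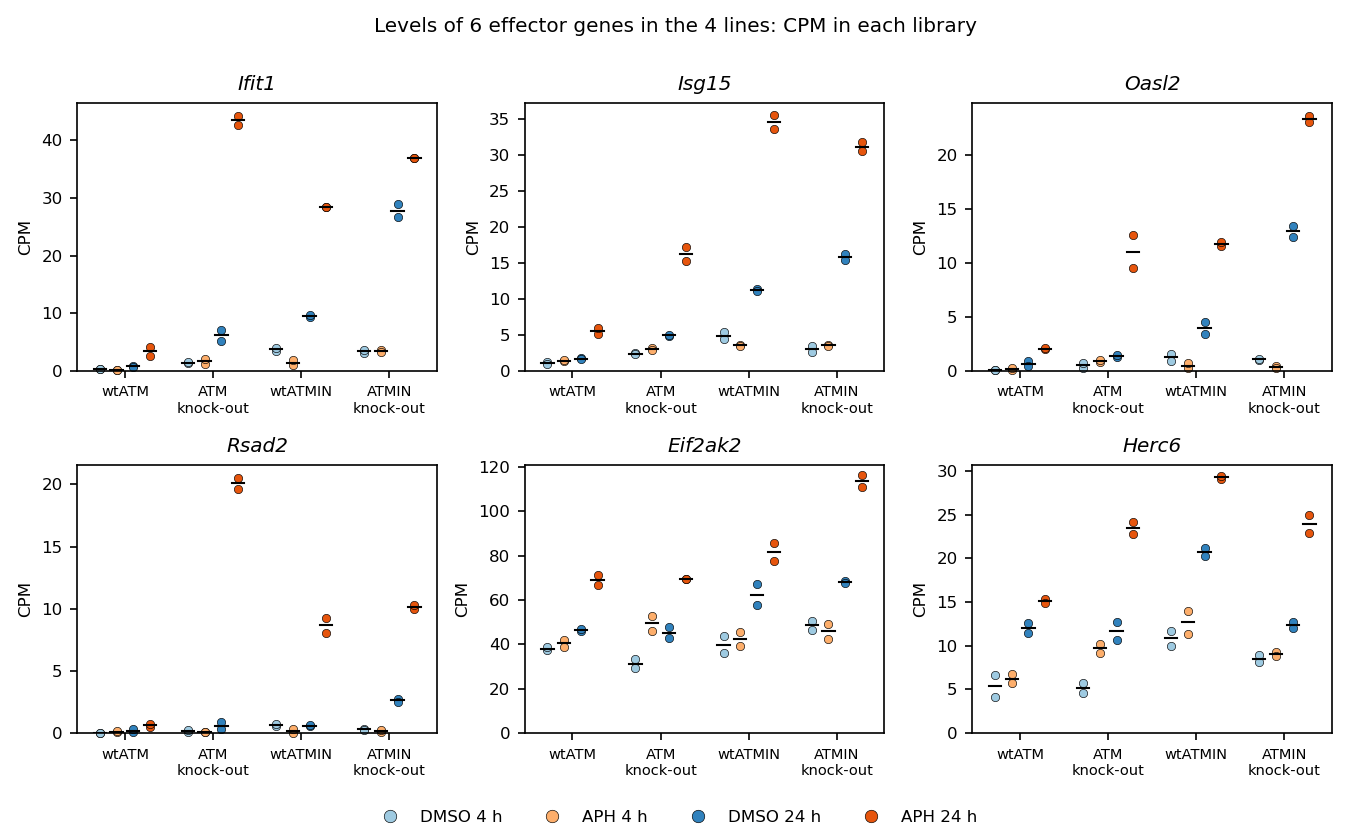
CPM in each of the 32 libraries for 6 effector genes (y axis, from 0), by line (x axis) and condition (colour); points are libraries and bars the means of 2. In each panel and line the APH 24 h points are the highest.

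The OAS proteins make short adenylate chains that switch on RNase L, and the OASL proteins are their relatives, of which mouse OASL1 lacks that activity. After 24 h, 6, 2, 6 and 6 of the 7 genes were called higher and none lower. Oasl1, which in mice restrains translation of the transcription factor IRF7, was at 0.11 and 0.116 CPM in DMSO and 0.966 and 1.04 CPM in APH in wtATM, at 1.5 and 1.87 against 16.8 and 16.5 in the ATM knock-out. It was at 2.46 and 2.43 against 11.6 and 12.5 in wtATMIN and at 9.85 and 10.3 against 18.6 and 21 in the ATMIN knock-out. APH libraries lay above DMSO libraries in every line, and the levels of wtATM were the lowest. Log2 changes of Oasl1 were 3.06 ± 0.57 (adjusted p = 6.98e-05), 3.31 ± 0.20 (adjusted p = 4.72e-15), 2.3 ± 0.18 (adjusted p = 6.54e-12) and 0.97 ± 0.15 (adjusted p = 3.47e-06). The 16 libraries of 4 h ranged from 0.0802 to 5.72 CPM.

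Oasl2, its neighbour on chromosome 5, was at 0.88 and 0.465 CPM in DMSO and 2.05 and 2.08 CPM in APH in wtATM, at 1.32 and 1.48 against 9.57 and 12.6 in the ATM knock-out. It was at 4.52 and 3.4 against 11.6 and 11.9 in wtATMIN and at 13.5 and 12.4 against 23.7 and 23.1 in the ATMIN knock-out. Again no APH library overlapped with its DMSO pair. Log2 changes of Oasl2 were 1.6 ± 0.35 (adjusted p = 0.000588), 2.98 ± 0.23 (adjusted p = 4.04e-12), 1.55 ± 0.18 (adjusted p = 3.91e-08) and 0.85 ± 0.15 (adjusted p = 4.88e-05). In the ATM knock-out both Oasl genes rose. Of its other Oas genes, Oas1a had 4 reads, Oas1g 1 and Oas2 0 in its 8 libraries together, while Oas1b had 125 and Oas3 107 and did not pass the test. In the other lines Oas1a rose by 1.8 ± 0.49 (adjusted p = 0.00454) in wtATM, 1.43 ± 0.44 (adjusted p = 0.012) in wtATMIN and 1.37 ± 0.44 (adjusted p = 0.017) in the ATMIN knock-out. The Oas1a call was lost for wtATM without DMSO replicate 2 (adjusted p = 0.0864), for wtATMIN without DMSO replicate 2 (adjusted p = 0.129) or APH replicate 1 (adjusted p = 0.228) and for the ATMIN knock-out without DMSO replicate 1 (adjusted p = 0.0539), DMSO replicate 2 (adjusted p = 0.147) or APH replicate 2 (adjusted p = 0.0997). These genes form a cluster of similar copies (Oas1a chr5:120896256-120907521, Oas1g chr5:120876142-120887613), so reads could be split between them. Oas3, a larger synthetase, was called in no line, with log2 changes between 0.15 and 0.46. The Oas genes other than Oasl1 and Oasl2 were singled out here after their values were seen.

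Of 5 further antiviral effectors, 3, 3, 4 and 3 were called higher and none lower. Rsad2, which encodes viperin, an enzyme that makes a chain-terminating nucleotide, was at 0.055 and 0.29 CPM in DMSO and 0.512 and 0.716 CPM in APH in wtATM, at 0.30 and 0.902 against 19.7 and 20.5 in the ATM knock-out. It was at 0.571 and 0.608 against 8.07 and 9.27 in wtATMIN and at 2.75 and 2.53 against 9.96 and 10.3 in the ATMIN knock-out. APH and DMSO did not overlap in any line, and the wtATM levels stayed under 1 CPM. Log2 changes of Rsad2 were 1.79 ± 0.66 (adjusted p = 0.0379), 5.07 ± 0.28 (adjusted p = 1.1e-15), 3.87 ± 0.30 (adjusted p = 2.88e-12) and 1.94 ± 0.23 (adjusted p = 4.92e-08). The Rsad2 call was lost for wtATM without DMSO replicate 1 (adjusted p = 0.349), APH replicate 1 (adjusted p = 0.0573) or APH replicate 2 (adjusted p = 0.182). Its neighbour Cmpk2 (Rsad2 chr12:26442746-26456452, Cmpk2 chr12:26469204-26479837), a mitochondrial nucleotide kinase that supplies viperin's substrate, was at 0.44 and 0.349 CPM in DMSO and 0.341 and 0.391 CPM in APH in wtATM, at 0.42 and 0.322 against 2.09 and 2.02 in the ATM knock-out. It was at 1.27 and 0.973 against 4.11 and 4.78 in wtATMIN and at 1.79 and 1.14 against 3.41 and 3.12 in the ATMIN knock-out. It overlapped between APH and DMSO in wtATM alone. Its log2 changes were −0.12 ± 0.58 (adjusted p = 0.926), 2.44 ± 0.44 (adjusted p = 4.58e-05), 1.96 ± 0.31 (adjusted p = 5.79e-06) and 1.15 ± 0.31 (adjusted p = 0.00458). The Cmpk2 call was lost for the ATMIN knock-out without DMSO replicate 2 (adjusted p = 0.12).

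Mx1 encodes a dynamin-like GTPase that blocks influenza viruses in mice and had few reads: it was at 0.055 and 0.0581 CPM in DMSO and 0.341 and 0.586 CPM in APH in wtATM, at 0.060 and 0.193 against 0.38 and 0.326 in the ATM knock-out. It was at 0.132 and 0.122 against 0.321 and 0.354 in wtATMIN and at 0.119 and 0.253 against 0.262 and 0.353 in the ATMIN knock-out. It was called in wtATM, by a ratio of 8.05 (95% counting interval 1.87 to 72.6, 15 against 2 reads, adjusted p = 0.0109), and not in the other lines. APH and DMSO overlapped in no line, but on few reads: in the ATMIN knock-out there were 2 and 4 in DMSO and 5 and 6 in APH. The Mx1 call was lost for wtATM without DMSO replicate 1 (adjusted p = 0.0821), DMSO replicate 2 (adjusted p = 0.0711) or APH replicate 2 (adjusted p = 0.103). Isg20, an RNA exonuclease, was at 13.9 and 13 CPM in DMSO and 11.5 and 12.7 CPM in APH in wtATM, at 9.05 and 8.82 against 7.23 and 7.11 in the ATM knock-out. It was at 11.2 and 9.79 against 13.8 and 14.7 in wtATMIN and at 17.1 and 15.5 against 19 and 16.9 in the ATMIN knock-out. APH was above DMSO in wtATMIN, below it in the ATM knock-out and wtATM, and overlapped with it in the ATMIN knock-out. Log2 changes of Isg20 were −0.15 ± 0.12 (adjusted p = 0.362), −0.32 ± 0.14 (adjusted p = 0.0777), 0.43 ± 0.12 (adjusted p = 0.00384) and 0.14 ± 0.11 (adjusted p = 0.372). The Isg20 call was lost for wtATMIN without DMSO replicate 2 (adjusted p = 0.0712) or APH replicate 2 (adjusted p = 0.0546).

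Among 5 genes that sense or edit double-stranded RNA, 1, 4, 5 and 5 were called higher and none lower. Eif2ak2, the kinase PKR that halts translation when it binds double-stranded RNA, was at 46.2 and 47.2 CPM in DMSO and 66.8 and 71.3 CPM in APH in wtATM, at 43 and 47.7 against 69.6 and 69.3 in the ATM knock-out. It was at 57.8 and 67.2 against 85.8 and 77.6 in wtATMIN and at 68.8 and 67.6 against 111 and 117 in the ATMIN knock-out. Every APH library exceeded the DMSO libraries of its line. Log2 changes of Eif2ak2 were 0.56 ± 0.09 (adjusted p = 1.43e-05), 0.62 ± 0.09 (adjusted p = 4.69e-06), 0.39 ± 0.09 (adjusted p = 0.00109) and 0.74 ± 0.09 (adjusted p = 6.88e-08). The Eif2ak2 call was lost for wtATMIN without DMSO replicate 1 (adjusted p = 0.0938) or APH replicate 1 (adjusted p = 0.057). Adar, the enzyme that edits adenosine to inosine and so hides cellular RNA from PKR, was at 38 and 39.4 CPM in DMSO and 37.7 and 44 CPM in APH in wtATM, at 75.4 and 73 against 86.4 and 89.9 in the ATM knock-out. It was at 42.9 and 41.5 against 52 and 53.3 in wtATMIN and at 37.4 and 36 against 48.7 and 49.9 in the ATMIN knock-out. Levels were highest in the ATM knock-out, and APH exceeded DMSO without overlap in every line but wtATM. Log2 changes of Adar were 0.08 ± 0.08 (adjusted p = 0.499), 0.25 ± 0.07 (adjusted p = 0.00732), 0.32 ± 0.07 (adjusted p = 0.00108) and 0.43 ± 0.08 (adjusted p = 4.02e-05). The Adar call was lost for the ATM knock-out without DMSO replicate 2 (adjusted p = 0.0763) or APH replicate 2 (adjusted p = 0.0807).

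Zbp1, which senses left-handed nucleic acid and can start necroptosis, was at 0.385 and 0 CPM in DMSO and 0.284 and 0.651 CPM in APH in wtATM, at 0.060 and 0.0644 against 0.38 and 0.783 in the ATM knock-out. It was at 0.571 and 0.973 against 3.69 and 3.49 in wtATMIN and at 3.05 and 2.08 against 5.51 and 5.77 in the ATMIN knock-out. The libraries overlapped in wtATM alone, where levels stayed under 1 CPM as in the ATM knock-out. Log2 changes of Zbp1 were 1.18 ± 0.78 (adjusted p = 0.276), a ratio of 9.32 (95% counting interval 2.23 to 82.8, 18 against 2 reads, adjusted p = 0.0164), 2.25 ± 0.41 (adjusted p = 7.09e-05) and 1.13 ± 0.34 (adjusted p = 0.0102). The Zbp1 call was lost for the ATM knock-out without DMSO replicate 1 (adjusted p = 0.101), DMSO replicate 2 (adjusted p = 0.086) or APH replicate 2 (adjusted p = 0.173) and for the ATMIN knock-out without DMSO replicate 2 (adjusted p = 0.162) or APH replicate 2 (adjusted p = 0.0676). Dhx58, the RIG-I relative LGP2, had log2 changes of −0.11 ± 0.28 (adjusted p = 0.832), 0.82 ± 0.32 (adjusted p = 0.0549), 1.23 ± 0.20 (adjusted p = 1.35e-05) and 1.09 ± 0.19 (adjusted p = 3.65e-05). Ddx60, a helicase, had a ratio of 3.76 (95% counting interval 0.716 to 37.1, 7 against 2 reads, adjusted p = 0.28), 2.01 ± 0.35 (adjusted p = 3.96e-05), 1.94 ± 0.49 (adjusted p = 0.00261) and 1.71 ± 0.38 (adjusted p = 0.000838), and it was without a read in the 4 h libraries of wtATM. The Ddx60 call was lost for wtATMIN without APH replicate 2 (adjusted p = 0.0616).

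Parp9, Parp12 and Parp14 belong to the ADP-ribosyltransferase family, and Dtx3l is the ubiquitin ligase that works with Parp9. Of the 4 genes, 3, 4, 3 and 4 were called higher and none lower. Parp12, which ADP-ribosylates proteins at stress granules and the Golgi, was at 7.54 and 7.03 CPM in DMSO and 11 and 11.3 CPM in APH in wtATM, at 8.27 and 7.28 against 13.2 and 12.9 in the ATM knock-out. It was at 33.6 and 33 against 35.8 and 33.6 in wtATMIN and at 20.9 and 20.2 against 24.2 and 26.6 in the ATMIN knock-out. APH and DMSO did not overlap in wtATM or either knock-out, and overlapped in wtATMIN. Log2 changes of Parp12 were 0.61 ± 0.13 (adjusted p = 0.000425), 0.74 ± 0.13 (adjusted p = 3.23e-05), 0.06 ± 0.10 (adjusted p = 0.7) and 0.30 ± 0.10 (adjusted p = 0.0251). The Parp12 call was lost for the ATMIN knock-out without DMSO replicate 1 (adjusted p = 0.0829), DMSO replicate 2 (adjusted p = 0.146) or APH replicate 2 (adjusted p = 0.206). Parp9, the macrodomain partner of Dtx3l, was at 13.4 and 15.6 CPM in DMSO and 16.7 and 18.3 CPM in APH in wtATM, at 9.11 and 9.4 against 16.4 and 13.3 in the ATM knock-out. It was at 17.3 and 17.7 against 22.3 and 21.8 in wtATMIN and at 6.39 and 5.43 against 11.4 and 11.7 in the ATMIN knock-out. No APH library overlapped with its DMSO pair, and the ATMIN knock-out started from the lowest level. Log2 changes of Parp9 were 0.27 ± 0.11 (adjusted p = 0.0643), 0.68 ± 0.12 (adjusted p = 5.08e-05), 0.33 ± 0.11 (adjusted p = 0.0155) and 0.96 ± 0.13 (adjusted p = 7.24e-07). The Parp9 call was lost for wtATMIN without DMSO replicate 1 (adjusted p = 0.14), DMSO replicate 2 (adjusted p = 0.0602), APH replicate 1 (adjusted p = 0.123) or APH replicate 2 (adjusted p = 0.0701). Parp14 was called higher in all 4 lines, with 0.89 ± 0.26 (adjusted p = 0.00928), 1.06 ± 0.19 (adjusted p = 4.3e-05), 1.1 ± 0.15 (adjusted p = 3.48e-07) and 1.25 ± 0.18 (adjusted p = 1.19e-06). The Parp14 call was lost for wtATM without DMSO replicate 1 (adjusted p = 0.116) or APH replicate 2 (adjusted p = 0.395). Dtx3l was as well, with 0.49 ± 0.14 (adjusted p = 0.00552), 0.65 ± 0.14 (adjusted p = 0.000369), 0.46 ± 0.13 (adjusted p = 0.00529) and 0.88 ± 0.17 (adjusted p = 0.000137). The Dtx3l call was lost for wtATM without APH replicate 2 (adjusted p = 0.0503) and for wtATMIN without DMSO replicate 1 (adjusted p = 0.203) or APH replicate 2 (adjusted p = 0.088). Parp9 (chr16:35938470-35972605) and Dtx3l (chr16:35926511-35939151) overlap head to head, so without a stated strand setting reads in the overlap cannot be told apart.

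Membrane proteins and lectins were less uniform: 3, 3, 2 and 3 of 4 were called higher and 0, 0, 0 and 1 lower. Ifitm3, which blocks viruses in endosomes and had the highest mean level of the list, was at 183 and 184 CPM in DMSO and 205 and 207 CPM in APH in wtATM, at 133 and 122 against 186 and 192 in the ATM knock-out. It was at 103 and 92.1 against 81.8 and 87.2 in wtATMIN and at 66 and 65.5 against 54.6 and 50.9 in the ATMIN knock-out. APH was higher in the ATM knock-out and wtATM and lower in both lines of the ATMIN pair, without overlap in any line. Log2 changes of Ifitm3 were 0.17 ± 0.08 (adjusted p = 0.111), 0.57 ± 0.08 (adjusted p = 6.75e-07), −0.21 ± 0.08 (adjusted p = 0.0514) and −0.32 ± 0.08 (adjusted p = 0.00413). The Ifitm3 call was lost for the ATMIN knock-out without APH replicate 2 (adjusted p = 0.0645). It passed as higher in the ATM knock-out and as lower in the ATMIN knock-out. Lgals9, a galectin that binds sugars on the cell surface, was at 103 and 104 CPM in DMSO and 140.4 and 151 CPM in APH in wtATM, at 2.34 and 2.0 against 6.53 and 7.24 in the ATM knock-out. It was at 24.6 and 25.2 against 28.3 and 32.1 in wtATMIN and at 17 and 14.3 against 22.6 and 20.0 in the ATMIN knock-out. APH was above DMSO in every line, around levels that differed widely between lines. Log2 changes of Lgals9 were 0.49 ± 0.09 (adjusted p = 3.72e-05), 1.66 ± 0.20 (adjusted p = 4.39e-08), 0.28 ± 0.10 (adjusted p = 0.0387) and 0.45 ± 0.11 (adjusted p = 0.00259). The Lgals9 call was lost for wtATMIN without DMSO replicate 1 (adjusted p = 0.219), DMSO replicate 2 (adjusted p = 0.105) or APH replicate 2 (adjusted p = 0.368) and for the ATMIN knock-out without DMSO replicate 2 (adjusted p = 0.0946) or APH replicate 1 (adjusted p = 0.062). Bst2, which tethers budding viruses, had 0.39 ± 0.12 (adjusted p = 0.0137), 0.23 ± 0.11 (adjusted p = 0.138), 0.53 ± 0.13 (adjusted p = 0.00149) and 0.40 ± 0.14 (adjusted p = 0.0324). The Bst2 call was lost for wtATM without DMSO replicate 1 (adjusted p = 0.163) or APH replicate 2 (adjusted p = 0.144) and for the ATMIN knock-out without DMSO replicate 1 (adjusted p = 0.153), DMSO replicate 2 (adjusted p = 0.108) or APH replicate 1 (adjusted p = 0.478). Lgals3bp, a secreted glycoprotein that binds galectins, had 0.79 ± 0.12 (adjusted p = 2.02e-06), 0.92 ± 0.12 (adjusted p = 5.16e-07), 0.10 ± 0.10 (adjusted p = 0.525) and 0.50 ± 0.12 (adjusted p = 0.00131).

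Of the 9 tested remaining effectors, 7, 6, 6 and 5 were called higher and none lower. Helz2, a helicase that acts as a nuclear receptor coactivator, was at 17.1 and 18.9 CPM in DMSO and 22.2 and 30.6 CPM in APH in wtATM, at 13.9 and 11.7 against 16.5 and 15.5 in the ATM knock-out. It was at 35.8 and 34.4 against 79.3 and 80.3 in wtATMIN and at 42.3 and 38.5 against 95 and 103 in the ATMIN knock-out. APH and DMSO did not overlap in any line, with the largest steps in wtATMIN and the ATMIN knock-out. Log2 changes of Helz2 were 0.54 ± 0.12 (adjusted p = 0.000414), 0.32 ± 0.13 (adjusted p = 0.0647), 1.18 ± 0.10 (adjusted p = 2.06e-11) and 1.29 ± 0.10 (adjusted p = 2.97e-12). The Helz2 call was lost for wtATM without APH replicate 2 (adjusted p = 0.0877). Ifi27, a small mitochondrial protein, was at 17.7 and 18 CPM in DMSO and 38.3 and 37.6 CPM in APH in wtATM, at 7.26 and 9.59 against 13 and 14.8 in the ATM knock-out. It was at 26.8 and 24.3 against 46.4 and 43.5 in wtATMIN and at 28.2 and 28.6 against 57.9 and 53.2 in the ATMIN knock-out. APH was above DMSO in every line. Log2 changes of Ifi27 were 1.09 ± 0.10 (adjusted p = 2.17e-10), 0.73 ± 0.13 (adjusted p = 3.83e-05), 0.81 ± 0.09 (adjusted p = 2.88e-08) and 0.97 ± 0.09 (adjusted p = 7.3e-10). Its call was kept in each fit without a library in each line.

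Xaf1, a protein that promotes apoptosis, was called higher in every line, by 0.67 ± 0.13 (adjusted p = 7.42e-05), 1.28 ± 0.15 (adjusted p = 1.58e-08), 0.70 ± 0.16 (adjusted p = 0.00119) and 0.61 ± 0.15 (adjusted p = 0.00198). The Xaf1 call was lost for the ATMIN knock-out without DMSO replicate 1 (adjusted p = 0.0656). Samd9l, which inhibits translation, was also called in every line, by 0.91 ± 0.16 (adjusted p = 5.97e-05), 1.04 ± 0.19 (adjusted p = 9.8e-05), 0.42 ± 0.16 (adjusted p = 0.0456) and 0.52 ± 0.16 (adjusted p = 0.0148). The Samd9l call was lost for wtATMIN without DMSO replicate 1 (adjusted p = 0.522), APH replicate 1 (adjusted p = 0.17) or APH replicate 2 (adjusted p = 0.142) and for the ATMIN knock-out without DMSO replicate 1 (adjusted p = 0.115), DMSO replicate 2 (adjusted p = 0.0558) or APH replicate 2 (adjusted p = 0.0898). Ifi35 was called in 3 lines, by 0.47 ± 0.13 (adjusted p = 0.00627), 0.58 ± 0.12 (adjusted p = 0.000267) and 0.60 ± 0.13 (adjusted p = 0.000764) for wtATM, wtATMIN and the line without ATMIN. The Ifi35 call was lost for wtATM without DMSO replicate 2 (adjusted p = 0.0586) or APH replicate 1 (adjusted p = 0.0514). Ifi44 was called in wtATM and the ATM knock-out, by 1.59 ± 0.33 (adjusted p = 0.000343) and 1.85 ± 0.48 (adjusted p = 0.00361). The Ifi44 call was lost for the ATM knock-out without APH replicate 2 (adjusted p = 0.066). Rtp4, a receptor chaperone, was called in the ATM knock-out and wtATMIN, by 0.84 ± 0.22 (adjusted p = 0.00411) and 1.23 ± 0.23 (adjusted p = 7.87e-05). The Rtp4 call was lost for the ATM knock-out without DMSO replicate 2 (adjusted p = 0.0515) or APH replicate 2 (adjusted p = 0.069). Trim30a, a ligase of a family of similar genes, was called in wtATM and the ATM knock-out, by 0.88 ± 0.32 (adjusted p = 0.0368) and 0.69 ± 0.15 (adjusted p = 0.000473). The Trim30a call was lost for wtATM without DMSO replicate 1 (adjusted p = 0.0698), DMSO replicate 2 (adjusted p = 0.215) or APH replicate 1 (adjusted p = 0.312). Sp100, a nuclear body protein, was called in none, with log2 changes of 0.72 ± 0.29 (adjusted p = 0.055), 0.64 ± 0.30 (adjusted p = 0.105), −0.25 ± 0.44 (adjusted p = 0.726) and −0.91 ± 0.85 (adjusted p = 0.466).

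The remaining members of the OAS and Mx families had few reads. Oas1b had log2 changes of 0.96 ± 0.35 (adjusted p = 0.0365), 1.23 ± 0.50 (adjusted p = 0.0645), 0.79 ± 0.28 (adjusted p = 0.0332) and 1.01 ± 0.28 (adjusted p = 0.00574). The Oas1b call was lost for wtATM without DMSO replicate 1 (adjusted p = 0.245), DMSO replicate 2 (adjusted p = 0.0596) or APH replicate 1 (adjusted p = 0.239), for wtATMIN without DMSO replicate 1 (adjusted p = 0.157), DMSO replicate 2 (adjusted p = 0.111), APH replicate 1 (adjusted p = 0.0629) or APH replicate 2 (adjusted p = 0.21) and for the ATMIN knock-out without DMSO replicate 2 (adjusted p = 0.0685) or APH replicate 1 (adjusted p = 0.0967). Oas1g rose by 2.8 ± 0.66 (adjusted p = 0.00149) in wtATM, 2.31 ± 0.76 (adjusted p = 0.0209) in wtATMIN and 2.78 ± 0.71 (adjusted p = 0.00288) in the ATMIN knock-out. The Oas1g call was lost for wtATMIN without DMSO replicate 1 (adjusted p = 0.0779), DMSO replicate 2 (adjusted p = 0.132) or APH replicate 2 (adjusted p = 0.215). Oas2 rose by 1.75 ± 0.39 (adjusted p = 0.00111) in wtATM and 2.0 ± 0.51 (adjusted p = 0.00312) in the ATMIN knock-out. In wtATMIN Oas2 had no read in DMSO and 7 in APH, at least 2.57-fold higher against 3 reads over the group. The Oas2 call was lost for wtATMIN without DMSO replicate 1 (adjusted p = 0.109), DMSO replicate 2 (adjusted p = 0.059) or APH replicate 1 (adjusted p = 0.059) and for the ATMIN knock-out without DMSO replicate 1 (adjusted p = 0.0925). Mx2, a second dynamin-like GTPase whose reads can be shared with Mx1, was called in all 4 lines: by a ratio of 7.52 (95% counting interval 2.24 to 39.4, 21 against 3 reads, adjusted p = 0.00853) in wtATM, a ratio of 9.84 (95% counting interval 2.37 to 87.1, 19 against 2 reads, adjusted p = 0.0081) in the ATM knock-out, and log2 changes of 2.42 ± 0.56 (adjusted p = 0.00106) in wtATMIN and 1.09 ± 0.42 (adjusted p = 0.0496) in the ATMIN knock-out. The Mx2 call was lost for wtATM without DMSO replicate 1 (adjusted p = 0.155), for the ATM knock-out without DMSO replicate 1 (adjusted p = 0.0689), DMSO replicate 2 (adjusted p = 0.0577) or APH replicate 1 (adjusted p = 0.0907), for wtATMIN without APH replicate 1 (adjusted p = 0.0508) and for the ATMIN knock-out without DMSO replicate 2 (adjusted p = 0.451), APH replicate 1 (adjusted p = 0.173) or APH replicate 2 (adjusted p = 0.14).

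At 4 h few effector genes were called, and the numbers called varied by line. Called higher were 0, 7, 1 and 3 of the 41 genes, against 2.82%, 14%, 7.25% and 9.48% of all genes. Called lower were 0, 2, 9 and 4, against 2.76%, 15.4%, 7.75% and 10.9%. As shares of the 41, these counts were near or below those over all genes, except for the genes called lower in wtATMIN. The median log2 change was 0.02, 0.28, −0.24 and −0.08, and that of all genes lay between −0.02 and 0.00. For wtATM, DESeq2 also called 0, and by edgeR 2 of the 41 were at an unadjusted p under 0.05.

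In wtATMIN the genes called lower at 4 h included Ifit1, which was at 3.47 and 4.02 CPM in DMSO and 1.09 and 1.83 CPM in APH (−1.35 ± 0.25, adjusted p = 0.000139). Ifit3 went from 5.15 and 5.98 CPM in DMSO to 1.64 and 1.71 CPM in APH (−1.73 ± 0.22, adjusted p = 5.53e-07). Ifitm3 was 45.4 and 52.9 CPM in DMSO and 31.2 and 34.6 CPM in APH (−0.58 ± 0.09, adjusted p = 1.4e-05). These 3 calls were kept in each fit without a library, and in none of the 3 did the groups overlap. Also lower were Isg15, Oasl2, Isg20, Lgals3bp, Lgals9 and Ifi27, and Helz2 was the one gene called higher (0.46 ± 0.10, adjusted p = 0.00158); each of these 7 calls was lost in at least 1 fit without a library. The number called was 5 without DMSO 4 h replicate 2 or without APH 4 h replicate 1.

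The ATMIN knock-out shared Ifit3 among its genes called lower at 4 h (−1.07 ± 0.22, adjusted p = 0.000378), with Ifit2, Oasl2 and Isg20. Oasl1 moved the other way, from 2.55 and 2.24 CPM in DMSO to 5.72 and 5.24 CPM in APH (1.2 ± 0.21, adjusted p = 5.57e-05), with Adar and Helz2 also called higher. Of these 7 calls, those of Ifit3 and Oasl1 were kept in each fit without a library. The number called was 3 without DMSO 4 h replicate 2 or without APH 4 h replicate 2.

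In the ATM knock-out, Parp14 rose at 4 h from 1.31 and 1.4 CPM to 4.12 and 3.9 CPM (1.57 ± 0.26, adjusted p = 3.08e-05). Samd9l went from 2.55 and 1.93 to 5.95 and 7.24 CPM (1.53 ± 0.29, adjusted p = 0.000184). Eif2ak2, Ifit2 and Herc6 were higher as well, by 0.66 ± 0.10 (adjusted p = 1.67e-05), 0.63 ± 0.10 (adjusted p = 2.77e-05) and 0.90 ± 0.18 (adjusted p = 0.000213). These 5 calls were kept in each fit without a library. Parp12 and Trim25 were also called higher and Ifitm3 and Bst2 lower. Trim25 rested on a ratio of 5.28 (95% counting interval 1.4 to 29.5, 11 against 3 reads, adjusted p = 0.0185). The APH libraries of this comparison are the pair with reads on many receptor genes, and its share of all genes called was 14% and 15.4%. With scaling by library size alone the split was 6 higher and 3 lower. Without APH 4 h replicate 1, 11 effector genes were called, and without replicate 2, or without DMSO 4 h replicate 2, 5 were. The part of those receptor reads in the 4 h result was not tested.

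Whether the 24 h response differed from the 4 h response was tested within each line as a difference of differences. Called were 11, 17, 21 and 18 of the 41 genes, all with a higher log2 change at 24 h than at 4 h. Of these, 0, 2, 9 and 3 had been called lower at 4 h, so that their difference includes a fall at that time. In wtATMIN Ifit3 was among them, with −1.73 ± 0.22 (adjusted p = 5.53e-07) at 4 h and −0.45 ± 0.14 (adjusted p = 0.0112) at 24 h. Over all genes 15.1%, 22%, 18.6% and 21.1% were called in either direction and 7.87%, 12.1%, 9.12% and 10.8% as higher at 24 h. Isg15 was called in every line, with differences of 1.29 ± 0.35 (adjusted p = 0.0169), 1.37 ± 0.25 (adjusted p = 0.000175), 2.09 ± 0.20 (adjusted p = 5.39e-10) and 0.77 ± 0.21 (adjusted p = 0.00645). Ifi27 was too, with 1.27 ± 0.16 (adjusted p = 3.32e-07), 1.03 ± 0.19 (adjusted p = 0.000111), 1.23 ± 0.15 (adjusted p = 7.02e-08) and 1.18 ± 0.15 (adjusted p = 1.32e-07). The counts without 1 library ran from 7 to 12, 8 to 16, 14 to 19 and 12 to 18, with the lowest wtATM count without DMSO 24 h replicate 1 and the lowest ATM knock-out count without DMSO 4 h replicate 2.

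Many genes differed between the DMSO groups of the 2 times, effector genes among them. At 24 h of DMSO against 4 h of DMSO, 11, 17, 23 and 32 of the 41 were called higher and 3, 3, 3 and 1 lower. Over all genes 23.1%, 24.6%, 29.1% and 23.4% were called higher and 23.3%, 24.1%, 26.3% and 23.8% lower, 46.4%, 48.7%, 55.5% and 47.2% in either direction. The 14 calls of wtATM were a smaller share of the 41 than that over all genes, and the 20 of the ATM knock-out about the same share. The median log2 difference of the effector genes was 0.24, 0.56, 0.77 and 1.24, and that of all genes lay between 0.00 and 0.03. In the ATMIN knock-out the time step was large: Ifit1 went from 3.12 and 3.71 CPM at 4 h to 26.7 and 28.9 CPM at 24 h (3.02 ± 0.15, adjusted p = 1.63e-17). Oasl2 went from 1.02 and 1.14 to 13.5 and 12.4 CPM (3.57 ± 0.23, adjusted p = 1.36e-14). Isg15 went from 3.51 and 2.67 to 16.2 and 15.4 CPM (2.36 ± 0.14, adjusted p = 1.17e-15). The 24 h APH changes of the same genes in this line were 0.41 ± 0.12, 0.85 ± 0.15 and 0.98 ± 0.11. Both steps use the same DMSO 24 h libraries, and the difference between them was not tested. Time in culture, Gm42418 and any batch of libraries move together between 4 h and 24 h and cannot be told apart. In wtATM the split was 16 higher and 2 lower with scaling by library size alone, 8 genes were called without DMSO 24 h replicate 2 and 9 without DMSO 4 h replicate 1.

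In each condition many effector genes differed between lines, and so did a large share of all genes. In the ATM knock-out against wtATM, 12 were called higher and 13 lower in DMSO at 4 h, 14 and 12 in APH at 4 h, 13 and 17 in DMSO at 24 h, and 15 and 15 in APH at 24 h. Of all genes 55.2%, 58.9%, 59.3% and 61.3% were called in either direction. In the ATMIN knock-out against wtATMIN the numbers were 4 and 11, 4 and 12, 14 and 13, and 14 and 11, with 44.9%, 42.1%, 49.6% and 50.6% of all genes called. Between the wild-type lines, wtATMIN against wtATM in DMSO, 15 were higher and 9 lower at 4 h and 23 and 10 at 24 h, with 57.2% and 61.7% of all genes called. Whether these shares differ from those over all genes was not tested. The count for the ATMIN knock-out in APH at 4 h fell to 10 without wtATMIN APH 4 h replicate 2.

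Trim25 and Lgals9 were far lower in the ATM knock-out than in wtATM. Trim25 was at 57.3 ± 2.74 CPM (SD, n = 8 libraries of all conditions) in wtATM, where each library had 682 to 1101 reads, and the 8 ATM knock-out libraries had 0 to 7 reads each. In wtATMIN it was at 9.02 ± 2.06 CPM and in the ATMIN knock-out at 40.3 ± 9.86 CPM, and wtATM and the ATMIN knock-out were the only lines that overlapped, through the APH 24 h libraries of the knock-out. In APH at 24 h, the log2 difference of the ATM knock-out from wtATM was −7.23 ± 0.20 (adjusted p = 3.1e-27) and that of the ATMIN knock-out from wtATMIN 2.74 ± 0.11 (adjusted p = 2.39e-21). Lgals9 was at 109 ± 23.8 CPM in wtATM and 3.77 ± 1.98 CPM in the ATM knock-out, with 16.9 ± 11.6 and 15 ± 4.47 CPM in the other two. Its difference in APH at 24 h was −4.4 ± 0.12 (adjusted p = 1.98e-27) for the ATM knock-out. Both differences were kept in each fit without a library.

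Trim30a, Oas3 and Oas2 were singled out for their line pattern after their values were seen. Trim30a was at 20.1 ± 13.7 CPM in the ATM knock-out, and no library of another line exceeded 2.39 CPM. Oas3 ran the other way, at 7.35 ± 1.38 CPM in wtATM against 1.02 ± 0.725, 0.845 ± 0.239 and 0.897 ± 0.138 CPM. Oas2 had 118 reads in wtATM, 0 in the ATM knock-out, 7 in wtATMIN and, in the line without ATMIN, 58. In APH at 24 h the ATM knock-out level of Oas2 was at least 26.7-fold lower than that of wtATM, set against 3 reads over the group.

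Ifit1, Ifit3, Oasl1 and Rsad2 were higher in the ATM knock-out than in wtATM in APH at 24 h, by 3.64 ± 0.15 (adjusted p = 1.75e-21), 4.13 ± 0.22 (adjusted p = 2.4e-18), 4.04 ± 0.22 (adjusted p = 3.97e-18) and 5.03 ± 0.28 (adjusted p = 2e-17). All 4 were also called higher in DMSO at 24 h, by 2.95 ± 0.25 (adjusted p = 1.33e-12), 3.41 ± 0.36 (adjusted p = 2.81e-10), 3.8 ± 0.51 (adjusted p = 4.35e-08) and 1.75 ± 0.67 (adjusted p = 0.023). Against wtATMIN, whose level of Ifit3 in DMSO at 24 h was 19.6 and 18.5 CPM, wtATM at 0.165 and 0.407 CPM was low as well (6.04 ± 0.26, adjusted p = 4.44e-21 for wtATMIN minus wtATM). The Rsad2 call in DMSO was lost without wtATM DMSO 24 h replicate 1 (adjusted p = 0.256) or the ATM knock-out DMSO 24 h replicate 2 (adjusted p = 0.488).

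In the ATMIN knock-out, 3 neighbours on chromosome 16, Parp14 (chr16:35832874-35871544), Dtx3l and Parp9, were lower than in wtATMIN in all 4 conditions. Their differences in DMSO at 4 h were −1.84 ± 0.28 (adjusted p = 1.16e-06), −1.81 ± 0.17 (adjusted p = 3.94e-11) and −1.97 ± 0.15 (adjusted p = 2.13e-13). In APH at 24 h they were −0.89 ± 0.15 (adjusted p = 3.04e-06), −1.16 ± 0.14 (adjusted p = 5.45e-09) and −0.93 ± 0.11 (adjusted p = 7.75e-09). Bst2 was lower too, at 7.44 ± 3.05 CPM against 18.8 ± 5.1 CPM, with a difference of −2.3 ± 0.15 (adjusted p = 1.21e-15) in DMSO at 4 h and −0.59 ± 0.13 (adjusted p = 0.000221) in APH at 24 h. Ifit1, Oasl1 and Oasl2 were higher than in wtATMIN in DMSO at 24 h, by 1.55 ± 0.13 (adjusted p = 1.7e-12), 2.04 ± 0.19 (adjusted p = 2.01e-11) and 1.69 ± 0.18 (adjusted p = 8.44e-10). In that comparison 14 effector genes were called higher and 13 lower. Among the lower ones were Ifit3 (−1.04, adjusted p = 1.82e-07) and Lgals3bp (−1.29, adjusted p = 3.68e-12).

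**Figure D5:**
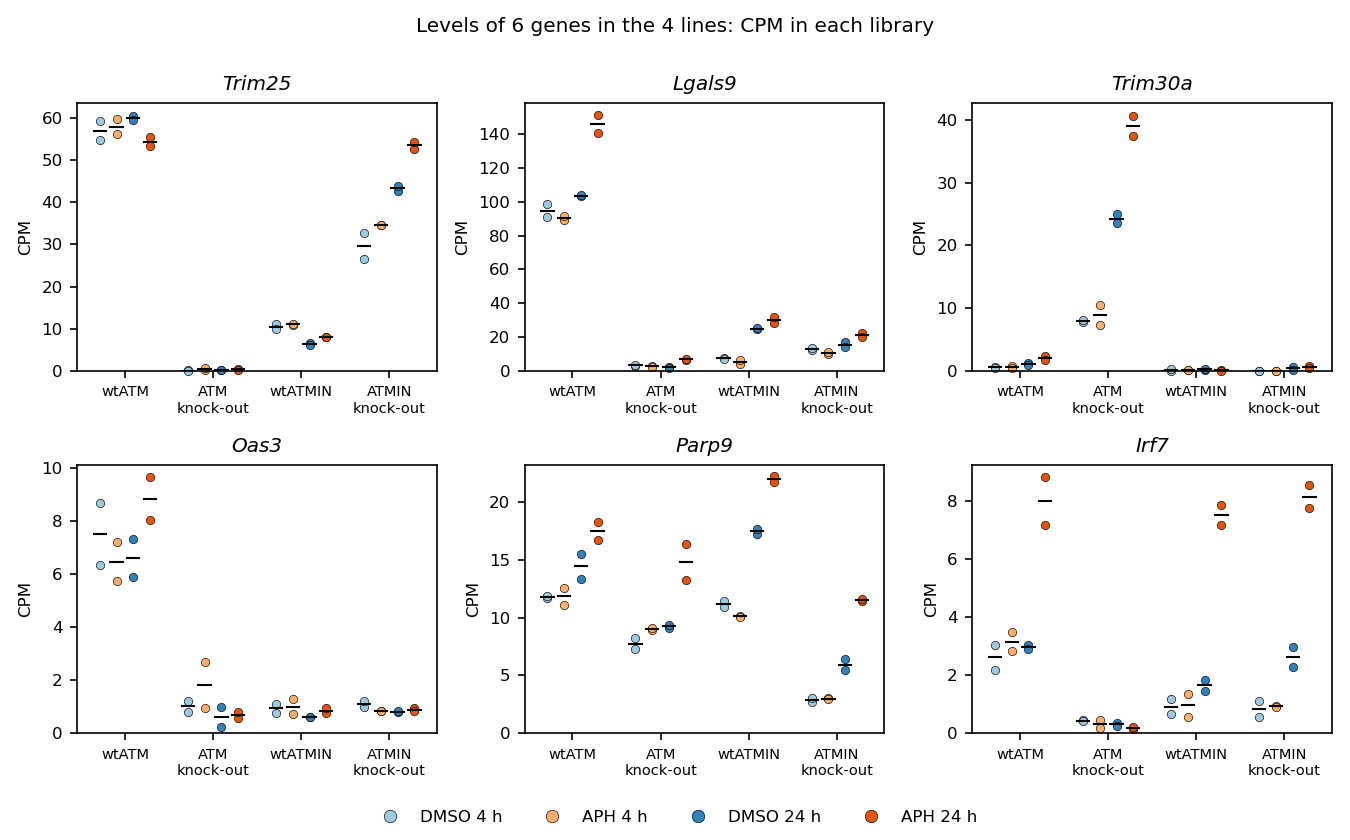
CPM in each of the 32 libraries for 5 effector genes and Irf7 (y axis, from 0), by line (x axis) and condition (colour); points are libraries and bars the means of 2. Trim25 and Lgals9 are near 0 in the ATM knock-out, Trim30a is high there alone, and Irf7 rises at APH 24 h in the other 3 lines.

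Whether the APH response of a knock-out differed from that of its wild type was tested as a difference of responses. For the ATM knock-out at 24 h, 5 genes had a larger response than in wtATM and 0 a smaller one, with 3.92% of all genes called. They were Lgals9 (1.17 ± 0.22, adjusted p = 0.000913), Ifitm3 (0.41 ± 0.11, adjusted p = 0.0268), Herc6 (0.68 ± 0.19, adjusted p = 0.0288), Cmpk2 (2.56 ± 0.75, adjusted p = 0.044) and Rsad2 (3.28 ± 0.96, adjusted p = 0.0465). Only the Lgals9 call was kept in each fit without a library, and the number called then ran from 1 to 3, lowest without wtATM DMSO 24 h replicate 2, wtATM APH 24 h replicate 1 or either ATM knock-out APH 24 h library. At 4 h 5 genes had a larger and 1 a smaller response (11.4% of all genes called): Parp14 (1.69 ± 0.45, adjusted p = 0.0134), Samd9l (1.41 ± 0.37, adjusted p = 0.0149), Eif2ak2 (0.57 ± 0.14, adjusted p = 0.0105), Ifit2 (0.61 ± 0.17, adjusted p = 0.0194), Trim25 (2.29 ± 0.76, adjusted p = 0.0437, with few reads in the knock-out) and, as the smaller one, Ifitm3 (−0.48 ± 0.12, adjusted p = 0.0078). None of these 6 calls was kept in each fit without a library. The count ran from 1 to 7, was 1 without wtATM APH 4 h replicate 2, ATM knock-out DMSO 4 h replicate 2 or ATM knock-out APH 4 h replicate 2, was 3 without wtATM DMSO 4 h replicate 1, and was 0 when the 4 groups compared were fitted alone.

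For the ATMIN knock-out at 24 h, 4 genes had a smaller response than in wtATMIN and 2 a larger one, with 2.43% of all genes called. Smaller were Ifit1 (−1.17 ± 0.17, adjusted p = 5.24e-05), Oasl1 (−1.32 ± 0.24, adjusted p = 0.00086), Rsad2 (−1.93 ± 0.41, adjusted p = 0.00516) and Isg15 (−0.64 ± 0.15, adjusted p = 0.0127). In each of these 4 the DMSO 24 h level of the knock-out was above that of wtATMIN, and the APH levels were closer: Rsad2 was at 2.75 and 2.53 CPM in DMSO and 9.96 and 10.3 CPM in APH in the knock-out and at 0.571 and 0.608 CPM in DMSO and 8.07 and 9.27 CPM in APH in wtATMIN. Larger were Parp9 (0.63 ± 0.17, adjusted p = 0.0384) and Ifit3 (0.75 ± 0.21, adjusted p = 0.0409). The calls of Ifit1 and Oasl1 were kept in each fit without a library, and the count ran from 2 to 4, lowest without wtATMIN DMSO 24 h replicate 1. It was 3 without wtATMIN DMSO 24 h replicate 2, wtATMIN APH 24 h replicate 1, ATMIN knock-out DMSO 24 h replicate 1 or either ATMIN knock-out APH 24 h library, and 13 when the 4 groups were fitted alone. With scaling by library size alone the split was 4 smaller and 0 larger. At 4 h, 2 genes had a larger response, Oasl1 (1.66 ± 0.32, adjusted p = 0.00373) and Ifit1 (1.37 ± 0.33, adjusted p = 0.0337), with 0.671% of all genes called. Neither was called without wtATMIN DMSO 4 h replicate 2 or without wtATMIN APH 4 h replicate 1, and 1 was called without any 1 of the 4 ATMIN knock-out libraries.

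The wild-type lines also responded differently from each other. At 24 h the response of wtATMIN was larger than that of wtATM for Cmpk2 (2.07 ± 0.67, adjusted p = 0.0318), Dhx58 (1.34 ± 0.35, adjusted p = 0.00744), Helz2 (0.64 ± 0.15, adjusted p = 0.00329) and Isg20 (0.59 ± 0.16, adjusted p = 0.012). It was smaller for Ifit3 (−2.11 ± 0.49, adjusted p = 0.00234), Ifit2 (−1.0 ± 0.16, adjusted p = 2.01e-05), Lgals3bp (−0.69 ± 0.15, adjusted p = 0.00177), Parp12 (−0.55 ± 0.16, adjusted p = 0.0179) and Ifitm3 (−0.37 ± 0.11, adjusted p = 0.0204). Of all genes 14.1% were called. The calls of Ifit2 and Lgals3bp were kept in each fit without a library, and 4 of the 9 genes were called without wtATM DMSO 24 h replicate 1. At 4 h Ifitm3 alone was called (−0.74 ± 0.12, adjusted p = 0.000362), with 2.44% of all genes; 2 effector genes were called without wtATM DMSO 4 h replicate 2 and 3 without wtATMIN APH 4 h replicate 2.

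Transcripts of the interferon genes that were looked up were at the limit of detection. Ifnb1 had 3 reads in 515815958 reads of all 32 libraries, 4 Ifna genes had 2 together and Ifng had 2. Other interferon genes were not looked up. Of the Ifnb1 reads, 2 were in the APH 24 h libraries of wtATM. No difference could be detected at this depth. The receptor chain Ifnar1 was present throughout, at 47 ± 5.31, 31.8 ± 3.56, 80.4 ± 9.62 and 101 ± 5.74 CPM (SD, n = 8), and was called at 24 h in no line, with log2 changes of 0.10 ± 0.07 (adjusted p = 0.298), 0.15 ± 0.08 (adjusted p = 0.152), 0.01 ± 0.07 (adjusted p = 0.944) and 0.05 ± 0.07 (adjusted p = 0.624). The interferon gamma receptor chain Ifngr2 rose at 24 h in every line, by 0.61 ± 0.09 (adjusted p = 3.77e-06), 0.89 ± 0.12 (adjusted p = 2.55e-07), 0.54 ± 0.08 (adjusted p = 4.32e-06) and 0.24 ± 0.08 (adjusted p = 0.0249).

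Of 31 pathway genes 25 were tested, and 8, 11, 13 and 13 were called higher at 24 h and 2, 1, 2 and 3 lower. Over all genes 14.4%, 15.7%, 13.6% and 14.3% were called higher and 14.3%, 12.2%, 15.3% and 15.8% lower. The same shares stand beside the 24 h counts of the smaller pathway lists that follow. Among 9 signalling genes, 4, 6, 4 and 6 were called higher and 1, 1, 1 and 1 lower. Stat2 was at 19.6 and 19 CPM in DMSO and 29.1 and 30.2 CPM in APH in wtATM, at 28.1 and 28.7 against 41 and 38.7 in the ATM knock-out. It was at 31.6 and 33.8 against 56 and 56.3 in wtATMIN and at 34.3 and 34.7 against 43.3 and 44 in the ATMIN knock-out, so APH exceeded DMSO without overlap in every line. Its log2 changes were 0.62 ± 0.09 (adjusted p = 1.17e-06), 0.49 ± 0.08 (adjusted p = 2.52e-05), 0.78 ± 0.08 (adjusted p = 1.39e-09) and 0.34 ± 0.08 (adjusted p = 0.00143). Irf9, the DNA-binding part of the complex, changed by 0.19 ± 0.13 (adjusted p = 0.273), 0.58 ± 0.12 (adjusted p = 0.000371), 0.53 ± 0.10 (adjusted p = 8.7e-05) and 0.57 ± 0.11 (adjusted p = 0.000119) and did not pass in wtATM.

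Irf7, the transcription factor that amplifies interferon production, was at 3.03 and 2.9 CPM in DMSO and 8.81 and 7.16 CPM in APH in wtATM, at 0.36 and 0.258 against 0.127 and 0.196 in the ATM knock-out. It was at 1.84 and 1.46 against 7.16 and 7.86 in wtATMIN and at 2.27 and 2.97 against 7.76 and 8.54 in the ATMIN knock-out. It rose in 3 lines, by 1.43 ± 0.22 (adjusted p = 3.5e-06) in wtATM, 2.16 ± 0.24 (adjusted p = 6.8e-09) in wtATMIN and 1.64 ± 0.22 (adjusted p = 5.69e-07) in the ATMIN knock-out. In the ATM knock-out it had 2 to 7 reads per library, and its 24 h change was −0.92 ± 0.76 (adjusted p = 0.408). In that line 27 of the 41 effector genes were called higher at 24 h, Ifit1, Oasl1 and Rsad2 among them. Usp18, Oas1b, Oas3 and Helz2 were among those not called. Whether these changes go with the level of Irf7 was not tested. Irf3, which can induce interferon and some effectors directly, was called lower in wtATM (−0.38 ± 0.11, adjusted p = 0.0114) and the ATM knock-out (−0.59 ± 0.12, adjusted p = 0.000299).

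Of 8 upstream sensors and adaptors, 3, 4, 7 and 5 were called higher at 24 h and 1, 0, 0 and 0 lower. Ddx58, which encodes RIG-I, rose in every line, by 0.68 ± 0.11 (adjusted p = 6.29e-06), 0.91 ± 0.13 (adjusted p = 2.13e-06), 0.79 ± 0.10 (adjusted p = 1.93e-07) and 0.76 ± 0.10 (adjusted p = 2.74e-07). Ifih1, which encodes the sensor MDA5, did so too, by 1.65 ± 0.55 (adjusted p = 0.0226), 1.71 ± 0.25 (adjusted p = 2.32e-06), 1.53 ± 0.19 (adjusted p = 6.04e-08) and 0.59 ± 0.18 (adjusted p = 0.0102). The DNA sensor cGAS (Mb21d1 in these tables) was called higher already at 4 h in 3 lines, by 0.64 ± 0.10 (adjusted p = 2.68e-05), 0.70 ± 0.09 (adjusted p = 7.85e-07) and 1.12 ± 0.10 (adjusted p = 6.02e-11), and was singled out after its values were seen. At 24 h it was called higher in wtATMIN (0.42 ± 0.09, adjusted p = 0.000567) and the ATMIN knock-out (0.74 ± 0.10, adjusted p = 2.21e-07) and lower in wtATM (−0.39 ± 0.13, adjusted p = 0.0266), with 0.17 ± 0.10 (adjusted p = 0.219) in the ATM knock-out. Among 4 feedback genes, 0, 0, 1 and 1 were called higher and 0, 0, 1 and 2 lower. Socs3, an inhibitor of JAK kinases, was called lower in wtATMIN (−0.31 ± 0.10, adjusted p = 0.0143) and the ATMIN knock-out (−0.64 ± 0.13, adjusted p = 0.00035). Pias1, a SUMO ligase, rose in the ATMIN knock-out (0.31 ± 0.08, adjusted p = 0.00292).

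Divided by gene length, the mean level over the 32 libraries was highest for Ifitm3 (142 CPM per kilobase), Bst2 (24.7), Ifi27 (24.5) and Lgals9 (23.6), and lowest for Oas2 (0.0869), Mx1 (0.0972) and Oas1g (0.134). These are levels and not responses. The highest ones are membrane, lectin and small interferon-induced proteins, and the low ones belong to the OAS and Mx families.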

How the data were processed

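RNA sequencing of 32 samples (16 groups of 2) was analysed from the gene count table that the authors deposited, whose values are whole-number read counts per gene, not normalized. Reads had been aligned with TopHat2 2.0.13 and Bowtie2 2.4.0 to mm10 and tested with DESeq2 1.6.3, per the submitters' processing notes. The counting tool, its strand setting and the annotation release are not given in the sources used here. A gene length column, which the authors deposited beside the counts, was used only for levels per kilobase. In the column names AT was read as APH and UT as DMSO. The 120 per-sample columns of the authors' 10 comparison tables were not used, and gene symbols came from those tables (16476 genes) or from GENCODE (21448 genes).

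Counts of all 39017 genes were filtered with filterByExpr and scaled by TMM. One model with 16 groups was fitted with edgeR 4.0.16 (limma 3.58.1, R 4.3.3; robust quasi-likelihood, common biological coefficient of variation 0.0643), and p-values were adjusted by the Benjamini-Hochberg method over 18484 genes in each of 32 comparisons. Differences of responses were contrasts of the same model. Where a group had no read for a gene, its fold is a bound from 3 reads over the group. With 1 to 3 reads the ratio of reads is given with an exact interval, which covers counting error only. Depth ran from 9321329 to 21020662 reads a library.

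The members and lists were chosen with earlier results of these data known. Values per sample are given for the 2 genes of each role with the highest mean level and for Ifit1, Isg15, Usp18, Oasl2, Mx1, Rsad2 and Zbp1. Genes called against the direction of most and those that differed between lines at 24 h are named, as are set pathway genes with up to 2 more a list by p. Other genes named were chosen after their values were seen. Values are printed to 3 significant digits and log2 values to 2 decimals, without trailing zeros. The test was checked on data simulated for a single comparison, APH against DMSO at 24 h in wtATM, with the same spread for all genes. Changes in genes with low counts and differences of responses were not simulated. Alternatives were RLE scaling, library size alone, no filter, a replicate block, the compared groups alone, DESeq2 1.42.0 and fits without each library. One gene of the pathway list, which enters the counts of that list, is not reported here.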

Additional observations from a re-analysis of the deposited data

Results flagged for a closer look

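The effector genes below drew attention because their response to APH differed between lines by the test of the difference itself, with values given as log2 differences of responses. Between the ATM knock-out and wtATM at 24 h these were Rsad2 (3.28), Cmpk2 (2.56), Lgals9 (1.17), Herc6 (0.68) and Ifitm3 (0.41). At 4 h they were Trim25 (2.29), Parp14 (1.69), Samd9l (1.41), Ifit2 (0.61), Eif2ak2 (0.57) and Ifitm3 (−0.48). The Trim25 value rests on 11 reads in APH and 3 in DMSO in the knock-out, and the APH libraries are the pair with reads on many receptor genes. None of the 4 h calls was kept in each fit without a library or when the compared groups were fitted alone.

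Between the ATMIN knock-out and wtATMIN at 24 h the differences were Rsad2 (−1.93), Oasl1 (−1.32), Ifit1 (−1.17), Isg15 (−0.64), Ifit3 (0.75) and Parp9 (0.63). At 4 h they were Oasl1 (1.66) and Ifit1 (1.37), so that both genes differed in opposite directions at 4 h and 24 h. Neither 4 h call was kept in each fit without a library, so the change of direction is uncertain. Between wtATMIN and wtATM at 24 h they were Cmpk2 (2.07), Dhx58 (1.34), Helz2 (0.64), Isg20 (0.59), Ifit3 (−2.11), Ifit2 (−1.0), Lgals3bp (−0.69), Parp12 (−0.55) and Ifitm3 (−0.37). At 4 h Ifitm3 differed between the wild-type lines (−0.74).

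Within lines, the response at 24 h differed from that at 4 h for 11 (wtATM) and 17 (ATM knock-out) of the 41 tested genes in one pair of lines, and for 21 (wtATMIN) and 18 (ATMIN knock-out) in the other. Over all genes 15.1%, 22%, 18.6% and 21.1% were called in either direction. Of the effector genes so called, 0, 2, 9 and 3 had been called lower at 4 h, so their difference includes a fall at that time.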

How the results depend on the processing

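Of 585 calls of effector genes over 32 comparisons, 2 were lost with RLE scaling, 18 with scaling by library size alone, 27 with no filter on low counts and 3 with the replicate block. With the compared groups alone 22 of 549 were lost, and with DESeq2 46 of 564. These totals are smaller because calls of genes without a test or an adjusted p in that setting were left out. Whether those calls hold there is not shown. In a fit without both ATM knock-out APH 4 h libraries, added after seeing the data, 0 of 527 were lost, and in none of these settings did a call reverse. Samples of one group pair share only a replicate number: deviations of samples with the same number correlated between -0.160 and 0.141 over 16 pairs, and the replicate block kept 582 calls.

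Counts that moved by over 1.5 times were as follows. With the compared groups alone, the APH response at 4 h in the ATM knock-out had 5 calls, its difference from wtATM 0, the difference of the ATMIN knock-out from wtATMIN 1 at 4 h and 13 at 24 h. With DESeq2 both differences at 24 h had 3, and with library size alone that of the ATM knock-out had 2. Without 1 library, the APH response at 4 h ran from 5 to 11 calls in the ATM knock-out, 5 to 10 in wtATMIN and 3 to 6 in the ATMIN knock-out. The difference of responses ran from 1 to 7 at 4 h and 1 to 3 at 24 h for the ATM knock-out, and from 0 to 2 and 2 to 4 for the ATMIN knock-out. It ran from 1 to 3 at 4 h and 4 to 9 at 24 h between the wild types. The difference of the 24 h from the 4 h response ran from 7 to 12 in wtATM and 8 to 16 in the ATM knock-out. The ATMIN knock-out against wtATMIN in APH at 4 h ran from 10 to 15, and DMSO at 24 h against 4 h in wtATM from 8 to 12. The cause was not tested; the lone sample of a group was assumed to vary like the other groups. Library size alone moved the median of all genes by over 0.1 in 3 comparisons (0.11 to 0.13 on the log2 scale), namely between the DMSO times in both ATMIN lines and between the wild types in DMSO at 24 h. Oas1a, Oas1g and Oas2 had 4, 1 and 0 reads in the 8 ATM knock-out libraries together, where no change was detectable at this depth.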
